A study of Mus musculus with 54 samples.

Results

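The genes described here are those of the mitochondrial protein import machinery. They were chosen by name: every gene of the table whose symbol begins with Timm or Tomm, with Dnajc19, Grpel1, Grpel2, Pmpca, Pmpcb, Chchd4, Gfer, Samm50, Mtx1 and Mtx2. The rule found 36 genes of the 45802 in the table, and no measured value entered it. Of these, 33 passed the filter on low values and were tested. The other 3 lay below it in every sample. Tomm20l, a relative of Tomm20, reached at most 0.0554 RPKM (reads per kilobase of gene, scaled to the mapped reads of the library). Timm8a2 reached at most 0.0339 RPKM. Tomm6os, a noncoding RNA antisense to Tomm6, reached at most 0.119 RPKM. By place, 12 of the 36 belong to the outer membrane (the TOM and SAM complexes), 9 to the intermembrane space, 8 to the inner membrane (TIM23 and TIM22) and 4 to the matrix. The name rule also took Tomm34, a cytosolic cochaperone, and Timmdc1, an assembly factor of respiratory complex I that shares a domain with the TIM channel proteins.

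Nearly all mitochondrial proteins are encoded in the nucleus, made in the cytosol and imported. Precursors are recognised by receptors on the outer membrane, cross it through the TOM channel, and are then sorted: to the SAM complex for barrel proteins, to small chaperones and a disulfide relay in the intermembrane space, to TIM22 for carrier proteins, or to TIM23 and its motor for matrix proteins, whose presequence is removed by a processing peptidase. T cells enlarge their mitochondria after activation, and import supplies most of the proteins for that growth.

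The study measured RNA by sequencing in C57BL/6 mouse T helper cells driven towards Th17. Linezolid, an antibiotic that blocks bacterial and mitochondrial ribosomes, and Arg C, which the labels also call P2A7, were each compared with the vehicle DMSO. Cells of all groups came from spleen and lymph nodes as CD4+ CD25- T cells. All were stimulated through CD3 and CD28 with TGF-β1, IL-6 and IL-1β and with antibodies that neutralised IFN-γ and IL-4. They grew for 96 h with DMSO, with 100 µM linezolid or with Arg C, whose dose is labelled 60 mM. On day 4 live CD4+ cells were separated by how far a dye had been diluted by division, into cycle 2 (1 division), cycle 3 (2 divisions) and cycle 4 (3 or more divisions). This was done in 2 experiments, giving 18 samples, 6 for each drug, and each was sequenced 3 times as technical replicates that were averaged here. Cells of 1 treatment were divided into the 3 cycles, so the 6 samples of a drug hold 2 independent experiments. The labels do not give the number of mice behind each experiment.

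Samples held 24.3 to 36.9 M reads. Cd4, Cd3e, Cd3g and Lck were detected in all samples, and Trac was listed at 0. Summed B cell markers reached at most 3.43 RPKM, and NK and erythroid markers were at or near 0. The monocyte list reached 17.3 RPKM, nearly all Cd68, with Lyz2, Csf1r and Adgre1 near 0, and the CD8 list 9.54 RPKM, nearly all Cd8b1. The antigen-presenting list summed to 74.5 to 110.5 RPKM with DMSO, 19.7 to 34.4 with Arg C and 21.3 to 26.9 with linezolid. Within it H2-Ab1 had a mean of 86.4 RPKM with DMSO, 9.8 with Arg C and 11.9 with linezolid, whereas Cd74 had 9.92, 15.3 and 12.1. The sum was nearly all these genes, since H2-Aa, Itgax and Flt3 had means of 0.690 RPKM or less in each drug group. Ribosomal protein genes took 17.4 to 19.1% of reads with DMSO, 29.0 to 33.2% with Arg C and 21.4 to 28.4% with linezolid. The comparisons over all cycles were also fitted without ribosomal-protein and mitochondrial-genome genes, and the counts are given at the end. Why the ribosomal share differed, and the part of the marker differences in the results below, were not tested. In bulk samples fewer cells of a type and less RNA per cell cannot be told apart.

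Promoters of 4 members are shown because their genes, whose products work in the same complex, moved in opposite directions with both drugs. Tomm20 and Tomm40 are a receptor and the channel of TOM. Pmpca and Pmpcb are the subunits of the matrix processing peptidase. Each line gives the RefSeq sequence of build GRCm38.p6 from 250 bases before to 50 bases after the start of the gene, read 5′ to 3′ on the strand of the gene. Capitals mark a match to a searched motif on either strand.
Tomm20: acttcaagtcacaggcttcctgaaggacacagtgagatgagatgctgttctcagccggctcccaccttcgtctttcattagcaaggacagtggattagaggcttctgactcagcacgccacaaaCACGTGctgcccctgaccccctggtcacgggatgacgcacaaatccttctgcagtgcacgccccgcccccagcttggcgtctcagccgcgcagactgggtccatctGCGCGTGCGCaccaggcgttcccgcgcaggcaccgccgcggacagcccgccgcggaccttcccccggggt
Tomm40: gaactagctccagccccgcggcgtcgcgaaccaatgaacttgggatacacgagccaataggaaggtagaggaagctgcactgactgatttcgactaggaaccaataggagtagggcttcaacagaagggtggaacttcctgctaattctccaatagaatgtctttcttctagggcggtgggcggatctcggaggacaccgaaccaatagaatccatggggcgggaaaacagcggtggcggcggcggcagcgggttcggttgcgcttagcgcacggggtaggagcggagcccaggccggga
Pmpca: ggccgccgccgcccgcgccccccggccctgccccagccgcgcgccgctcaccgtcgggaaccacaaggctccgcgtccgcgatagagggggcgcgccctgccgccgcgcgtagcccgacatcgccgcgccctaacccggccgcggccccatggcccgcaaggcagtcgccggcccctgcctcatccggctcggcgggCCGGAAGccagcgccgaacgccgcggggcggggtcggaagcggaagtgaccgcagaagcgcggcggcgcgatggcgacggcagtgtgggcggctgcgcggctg
Pmpcb: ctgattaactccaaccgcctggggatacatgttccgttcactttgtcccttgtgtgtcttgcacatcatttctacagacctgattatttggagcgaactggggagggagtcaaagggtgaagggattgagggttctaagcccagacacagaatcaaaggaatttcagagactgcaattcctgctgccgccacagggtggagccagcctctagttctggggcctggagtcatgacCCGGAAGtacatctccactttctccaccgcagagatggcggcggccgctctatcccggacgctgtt
The windows lie at chr8:126945872-126946171 on the minus strand (Tomm20), chr7:19715380-19715679 on the minus strand (Tomm40), chr2:26389098-26389397 on the plus strand (Pmpca) and chr5:21736910-21737209 on the plus strand (Pmpcb). The motifs searched, on both strands, were the palindromic NRF1 site and a looser form that allows any base at the fifth position and so includes the strict one, the ETS core CCGGAAG, the E-box CACGTG, the ATF4 element TGATGCAA and the YY1 core AAGATGG. RefSeq's promoter table held 32 of the 36 members. The ETS core lay in 14 of these, beside 8.86% of all 32851 promoters. Both promoters of the peptidase pair held it. The looser NRF1 site lay in 3 members (Chchd4, Timm8b and Tomm20), beside 4.60% of all promoters. The E-box lay in 6 members (7.15% of all), YY1 in 4 (6.34% of all), and the strict NRF1 site and the ATF4 element in 0 of 32 (0.971% and 0.895% of all). In Tomm20 the capitals are an E-box followed by the looser NRF1 site, and in Tomm40 no searched motif was found. A match describes letters and shows no binding.

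With Arg C most import genes were lower than with DMSO at the same division cycle, and a few rose. Over all cycles 5 of the 33 tested members rose and 27 fell. Of all 11004 genes tested, 16.5% were called higher and 70% lower, so falls were common to genes at large. The median change of the members was -0.58 on the log2(RPKM + 1) scale, beside -0.47 for all genes. The genes that rose were Tomm20, Tomm7, Timm8b, Pmpcb and Tomm22. The deepest falls were those of Chchd4, Tomm40, Mtx2 and Pmpca. With linezolid 5 members rose and 23 fell, beside 21% and 54.5% of all genes, and the median was -0.37 beside -0.21. The 6 samples of the 2 groups did not overlap for 3 members that were higher (Tomm20, Tomm7 and Pmpcb) and 21 that were lower with Arg C, beside 7.65% and 55.1% of all genes. With linezolid this held for Tomm7 on the higher side and for 16 members on the lower side, beside 9.19% and 32.8% of all genes. Calls were made by limma at a Benjamini-Hochberg adjusted p under 0.05 over all genes tested. Both drugs were compared with the same DMSO samples. With the 3 cycles averaged, so that each drug had 2 values, 4 members rose and 23 fell with Arg C, beside 12.5% and 62.1% of all genes in that fit. With linezolid 1 rose, Tomm20, and 20 fell, beside 13.9% and 40.4%.

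Because the middle of all genes moved, a lower RPKM need not mark a gene that fell more than most. When each sample was scaled to the median ratio of all genes instead, 11 members were higher and 11 lower with Arg C, beside 41.9% and 41.4% of all genes. With linezolid 10 were higher and 14 lower, beside 38% and 36.3%. The median of all genes was then 0.01 for each drug. All 5 genes that rose with Arg C also rose under this scaling. The 11 that fell under both scalings were Tomm40, Tomm5, Tomm70a, Mtx1, Mtx2, Chchd4, Timm10, Timm8a1, Timm21, Pmpca and Timmdc1. Tomm6, Gfer, Timm13, Timm9 and Timm17b turned from lower to higher. The other 11 members called lower lost the call, and Dnajc19 became higher. With linezolid 5 rose under both scalings (Tomm20, Tomm7, Timm8b, Timm17b and Pmpcb) and 14 fell under both, and none turned.

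**Figure D1:**
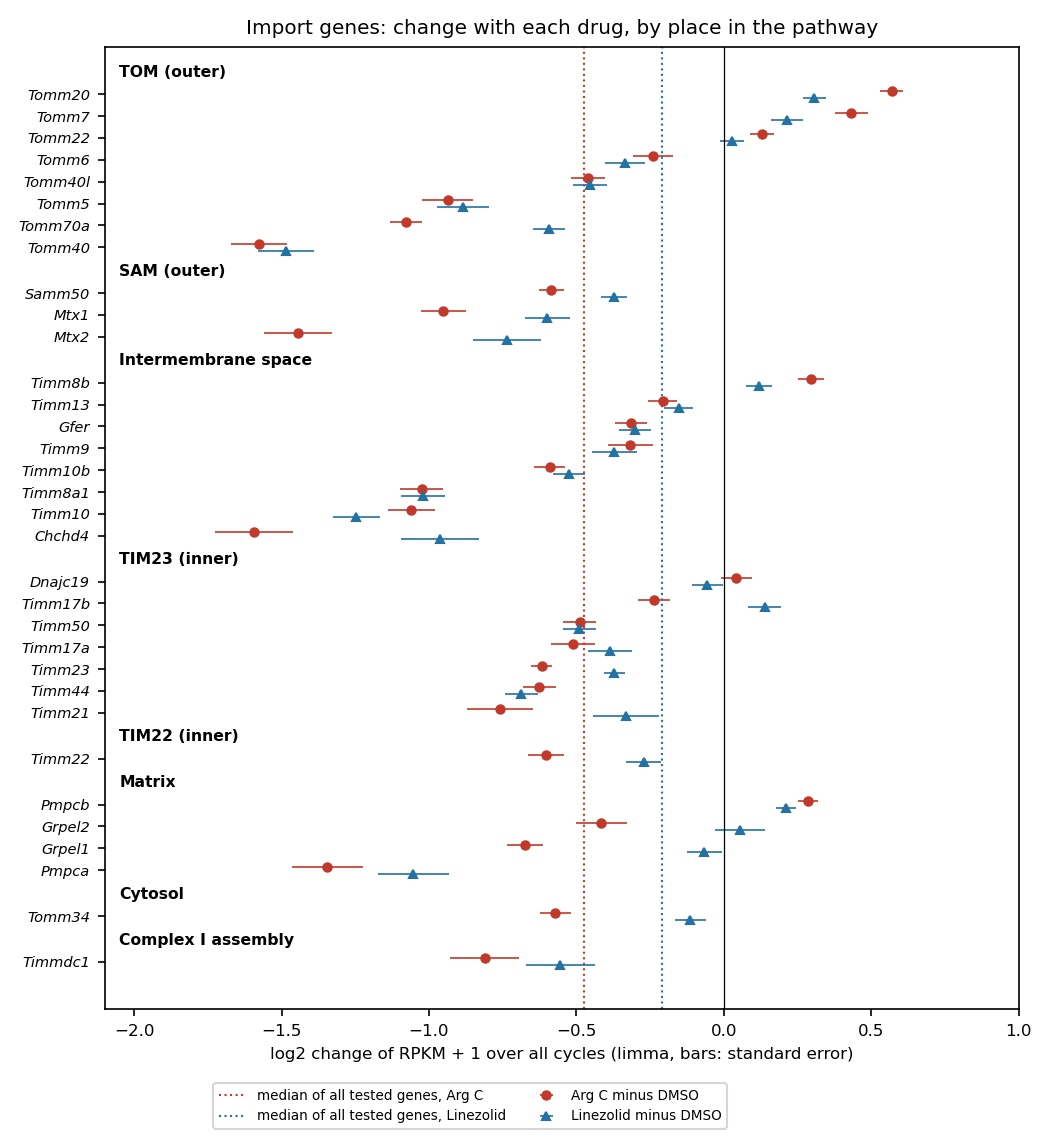
Change of the 33 tested import genes with Arg C (circles) and linezolid (triangles) against DMSO over all cycles, in log2(RPKM + 1) with standard errors, ordered by place in the pathway. Dotted lines mark the median of all 11004 tested genes, -0.47 for Arg C and -0.21 for linezolid. Tomm20, Tomm7, Timm8b, Pmpcb and Tomm22 lie to the right of 0 for both drugs, and Tomm40, Pmpca, Timm10 and Timm8a1 lie below -1 for both.

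Of the receptors, Tomm20 rose and Tomm70a fell. TOM20 binds presequences, whereas TOM70 receives hydrophobic precursors such as carriers from cytosolic chaperones. The level of Tomm20 ranged from 35.0 to 48.8 RPKM with DMSO (median 41.7), from 54.1 to 70.8 with Arg C (median 61.2) and from 40.7 to 65.2 with linezolid (median 52.3). Every Arg C sample lay above every DMSO sample, while linezolid and DMSO overlapped. The change of Tomm20 was 0.57 ± 0.04 log2 with Arg C (± is the standard error here and below; limma, adjusted p = 2.1e-08) and 0.31 ± 0.04 with linezolid (adjusted p = 1.23e-05). It was higher than DMSO of the same cycle and experiment in 6 of 6 pairs for each drug. Tomm70a ranged from 25.3 to 29.8 RPKM with DMSO, from 10.0 to 15.4 with Arg C and from 15.7 to 21.5 with linezolid, with medians of 27.5, 12.1 and 17.1. The 3 groups did not overlap, with DMSO highest and Arg C lowest. Tomm70a fell by 1.08 ± 0.05 with Arg C and by 0.59 ± 0.05 with linezolid. Tomm22, the receptor that also organises the complex, rose by 0.13 ± 0.04 with Arg C (limma, adjusted p = 0.00831) in overlapping groups. Its change with linezolid was 0.03 ± 0.04 and was not called.

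The channel gene Tomm40 fell more than any other TOM gene. Its level was 11.7 to 16.0 RPKM with DMSO (median 14.1), 2.13 to 6.21 with Arg C (median 4.55) and 2.60 to 6.18 with linezolid (median 4.49). All 12 drug samples lay below all DMSO samples, and the drugs overlapped with each other. Tomm40 fell by 1.58 ± 0.09 with Arg C (limma, adjusted p = 6.91e-09) and by 1.48 ± 0.09 with linezolid (adjusted p = 2.98e-08). Tomm40l, which encodes a second form of the channel, fell by 0.46 ± 0.06 and 0.45 ± 0.06. With DMSO Tomm40 was the more abundant of the pair per length, at 1.75 to 2.00 times Tomm40l. With Arg C it was 0.478 to 1.08 times, and with linezolid 0.532 to 1.16 times. The ratio of Tomm20 to Tomm40 was 2.61 to 3.07 with DMSO, 11.0 to 25.6 with Arg C and 9.42 to 15.9 with linezolid. Ratios within a sample do not depend on its scaling. These pairs were chosen with their values known and carry no test.

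The small TOM subunits, which stabilise the channel, did not move together. Tomm7 rose, from 95.5 to 103.5 RPKM with DMSO (median 100.3) to 128 to 147 with Arg C (median 134) and 106 to 140 with linezolid (median 112). Both drug groups lay wholly above DMSO. Its change was 0.43 ± 0.06 with Arg C (limma, adjusted p = 7.88e-06) and 0.21 ± 0.06 with linezolid (adjusted p = 0.00346). Tomm5 fell by 0.94 ± 0.09 and 0.88 ± 0.09, without overlap. Tomm6 was lower in RPKM by the test, at -0.24 ± 0.07 and -0.34 ± 0.07, in groups that overlapped; under median-ratio scaling it was 0.40 with Arg C, which was called higher.

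**Figure D2:**
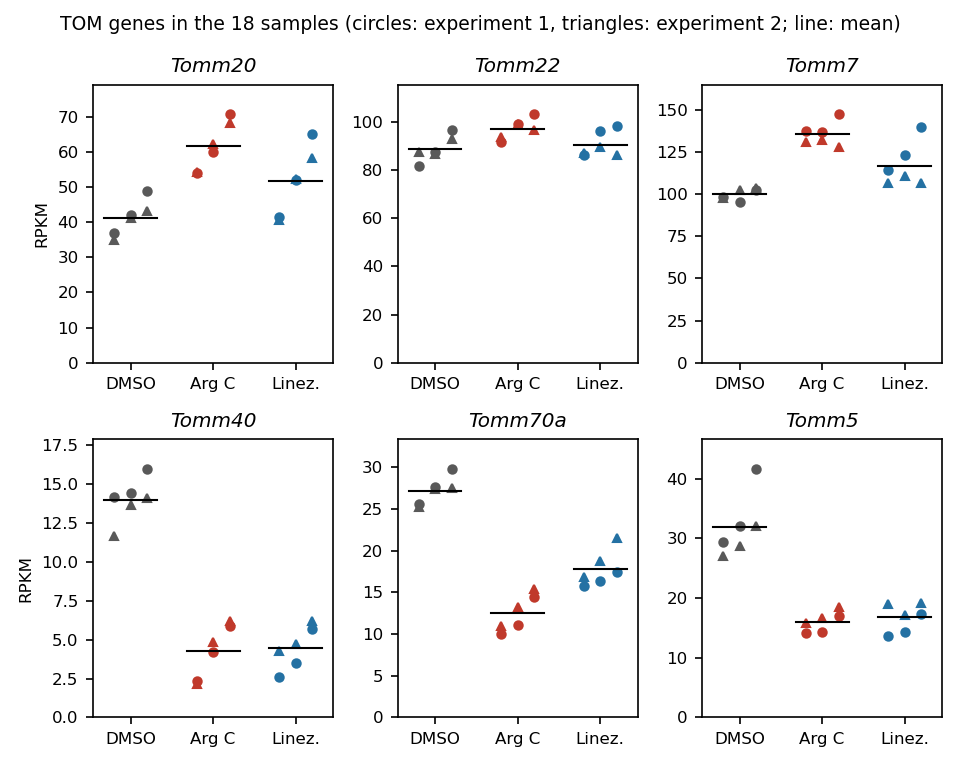
Level (RPKM, linear axis from 0) of 6 TOM genes in the 18 samples, with the mean of each drug as a line. Within a drug the points run from cycle 2 on the left to cycle 4 on the right; Tomm20 and Tomm7 are higher with Arg C than with DMSO in every sample, and Tomm40, Tomm70a and Tomm5 are lower in every sample of both drugs.

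All 3 genes of the SAM complex, which inserts barrel proteins into the outer membrane, fell with both drugs. Of all genes 70% fell with Arg C and 54.5% with linezolid. Mtx2, a metaxin on the cytosolic face of the complex, was 14.1 to 19.4 RPKM with DMSO (median 15.6), 3.98 to 6.91 with Arg C (median 5.33) and 7.25 to 11.8 with linezolid (median 9.23). The 3 groups did not overlap. Mtx2 fell by 1.44 ± 0.12 with Arg C (limma, adjusted p = 9.16e-08) and by 0.73 ± 0.12 with linezolid (adjusted p = 8.33e-05). Its partner Mtx1 fell by 0.95 ± 0.08 and 0.60 ± 0.08. Samm50, the barrel itself, fell by 0.58 ± 0.04 and 0.37 ± 0.04; with median-ratio scaling it was 0.05 and -0.09 and was not called for either drug. Mtx2 was 0.546 to 0.738 times Samm50 with DMSO, 0.274 to 0.393 times with Arg C and 0.372 to 0.580 times with linezolid, which overlapped both.

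In the intermembrane space the oxidoreductase of the disulfide relay had the deepest fall with Arg C. Chchd4 (Mia40) folds incoming cysteine-rich proteins, and Gfer reoxidises it. Chchd4 was 3.98 to 5.98 RPKM with DMSO (median 5.14), 0.327 to 1.62 with Arg C (median 1.07) and 1.29 to 3.83 with linezolid (median 1.80). Both drugs lay wholly below DMSO, and the lowest sample, Arg C at cycle 2 of experiment 1, held 14 reads. Chchd4 fell by 1.59 ± 0.13 with Arg C (limma, adjusted p = 1.28e-07) and by 0.96 ± 0.13 with linezolid (adjusted p = 2.63e-05). At levels near 1 RPKM the added pseudocount of 1 understates the change. Gfer fell by 0.31 ± 0.05 and 0.30 ± 0.05 in RPKM, and with median-ratio scaling was 0.31 with Arg C, called higher. Chchd4 was 0.220 to 0.331 times Gfer with DMSO, 0.0257 to 0.109 times with Arg C and 0.0941 to 0.253 times with linezolid.

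The small TIM chaperones carry hydrophobic precursors across that space as rings of TIM9 with TIM10 and of TIM8 with TIM13. Timm10 was 3.21 to 5.61 RPKM with DMSO (median 4.38), 0.834 to 2.42 with Arg C (median 1.81) and 0.839 to 2.22 with linezolid (median 1.06). Both drugs lay below DMSO without overlap, and the falls were 1.06 ± 0.08 (limma, adjusted p = 4.9e-08) and 1.25 ± 0.08 (adjusted p = 2.94e-08). Its ring partner Timm9 fell by 0.32 ± 0.08 and 0.37 ± 0.08, in overlapping groups, and was 0.23 with Arg C under median-ratio scaling, called higher. Timm10b, a TIM22-bound relative, fell by 0.59 ± 0.05 and 0.53 ± 0.05. The 2 forms of TIM8 moved apart. Timm8b was 45.1 to 54.5 RPKM with DMSO (median 47.6), 42.1 to 77.8 with Arg C (median 61.5) and 39.9 to 62.8 with linezolid (median 57.4). The groups overlapped. With Arg C the samples within or below the DMSO range were those of cycle 2, and with linezolid they were those of cycle 2 and cycle 3 of experiment 1 (52.7 RPKM). Timm8b rose by 0.30 ± 0.04 with Arg C (limma, adjusted p = 3.49e-05; higher in 5 of 6 pairs) and by 0.12 ± 0.04 with linezolid (adjusted p = 0.0274; 4 of 6 pairs). The call with linezolid was lost without any 1 of 6 samples (DMSO cycle 3 and linezolid cycles 2 and 4 of experiment 1, DMSO cycles 2 and 4 and linezolid cycle 3 of experiment 2), at 0.09 to 0.11. Timm8a1, whose human form is mutated in a deafness and dystonia syndrome, fell by 1.02 ± 0.07 with each drug. Timm8a1 was 0.130 to 0.230 times Timm8b with DMSO, 0.0512 to 0.0732 times with Arg C and 0.0612 to 0.0823 times with linezolid. Timm13 was -0.21 ± 0.05 and -0.15 ± 0.05, called lower for both; with median-ratio scaling it was 0.43 with Arg C, called higher.

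Of the 7 TIM23 genes 0 rose and 6 fell with Arg C, beside 16.5% and 70% of all genes. With median-ratio scaling 2 rose and 1 fell, beside 41.9% and 41.4%. Timm23, the channel-forming core, was 80.6 to 99.2 RPKM with DMSO (median 89.8), 41.4 to 76.7 with Arg C (median 60.8) and 54.3 to 86.4 with linezolid (median 69.2). Arg C lay wholly below DMSO, and linezolid overlapped it. Timm23 fell by 0.62 ± 0.04 with Arg C (limma, adjusted p = 5.1e-09) and by 0.37 ± 0.04 with linezolid (adjusted p = 1.07e-06), and under median-ratio scaling was 0.04 and -0.08, called for neither. Timm17a and Timm17b encode alternative partners of the channel. Timm17a was 22.7 to 27.8 RPKM with DMSO (median 24.3), 10.8 to 22.9 with Arg C (median 17.8) and 13.8 to 24.5 with linezolid (median 18.4). It fell by 0.51 ± 0.07 (limma, adjusted p = 2.47e-05) and 0.39 ± 0.07 (adjusted p = 0.000403), lower in 6 of 6 pairs for each drug. Timm17b was 15.3 to 18.8 RPKM with DMSO (median 17.6), 10.8 to 17.98 with Arg C (median 14.9) and 14.2 to 24.2 with linezolid (median 19.5). All 3 groups overlapped. Timm17b was -0.24 ± 0.06 with Arg C (limma, adjusted p = 0.00132) and 0.14 ± 0.06 with linezolid (adjusted p = 0.0369), the 1 member called lower with Arg C and higher with linezolid. The linezolid call was lost without linezolid cycle 2 of experiment 1 or any 1 of the 6 DMSO and linezolid samples of experiment 2, at 0.10 to 0.14. With median-ratio scaling it was called higher with both, at 0.39 and 0.42.

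Timm44 tethers the import motor to the channel. It was 16.4 to 22.0 RPKM with DMSO (median 18.8), 10.5 to 13.6 with Arg C (median 12.1) and 8.82 to 13.3 with linezolid (median 11.6), both drugs wholly below DMSO. Timm44 fell by 0.63 ± 0.06 (limma, adjusted p = 2.52e-07) and 0.69 ± 0.06 (adjusted p = 2.46e-07). With median-ratio scaling it was -0.0033 with Arg C, not called, and -0.41 with linezolid, called lower. Timm21, which links the channel to TOM and to the respiratory chain, was 3.53 to 5.18 RPKM with DMSO (median 3.98), 1.51 to 2.28 with Arg C (median 2.07) and 1.82 to 4.03 with linezolid (median 3.31). Arg C did not overlap DMSO and linezolid did. Timm21 fell by 0.76 ± 0.11 with Arg C (limma, adjusted p = 3.1e-05) and by 0.33 ± 0.11 with linezolid (adjusted p = 0.0173). In experiment 1, leaving out DMSO cycle 4, linezolid cycle 3 or linezolid cycle 4 gave -0.23, -0.27 and -0.24, none called. Timm50, the receptor of TIM23, fell by 0.49 ± 0.05 with each drug over all cycles, and its course is given below. Dnajc19, a motor cochaperone, was 0.04 ± 0.05 and -0.06 ± 0.05 and was the 1 tested member called for neither drug in RPKM. Timm22, the channel for carrier proteins, was 4.33 to 4.63 RPKM with DMSO (median 4.48), 2.23 to 2.85 with Arg C (median 2.68) and 3.04 to 4.22 with linezolid (median 3.52). The 3 groups did not overlap, and Timm22 fell by 0.60 ± 0.06 (limma, adjusted p = 8.19e-07) and 0.27 ± 0.06 (adjusted p = 0.00129). Timm22 was -0.09 and -0.04 with median-ratio scaling and not called.

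In the matrix the subunits of the processing peptidase moved in opposite directions. Pmpcb, the catalytic subunit, was 34.6 to 37.7 RPKM with DMSO (median 36.1), 40.1 to 46.8 with Arg C (median 45.3) and 37.2 to 45.4 with linezolid (median 43.6). Arg C lay wholly above DMSO, and Pmpcb rose by 0.29 ± 0.03 (limma, adjusted p = 3.92e-06) and, with linezolid, by 0.21 ± 0.03 (adjusted p = 0.000107). Pmpca, which binds the presequence, was 9.63 to 12.9 RPKM with DMSO (median 11.4), 3.20 to 4.41 with Arg C (median 3.90) and 3.20 to 7.52 with linezolid (median 4.98). Every drug sample lay below every DMSO sample. Pmpca fell by 1.34 ± 0.12 with Arg C (limma, adjusted p = 2.54e-07) and by 1.05 ± 0.12 with linezolid (adjusted p = 4.97e-06). Pmpca was thus 0.258 to 0.343 times Pmpcb with DMSO, 0.0800 to 0.0976 times with Arg C and 0.0718 to 0.202 times with linezolid. A stretch of 874 bp of Pmpca transcripts matches Inpp5e on the other strand, and the strand of counting is not given in the sources used here, so reads of this stretch cannot be told apart; Inpp5e reached at most 2.72 RPKM.

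Grpel1 and Grpel2 encode exchange factors of the matrix Hsp70 that drives import. Grpel1 was 12.8 to 14.2 RPKM with DMSO (median 13.2), 4.78 to 12.1 with Arg C (median 8.16) and 10.3 to 16.5 with linezolid (median 12.3). Arg C lay wholly below DMSO, and linezolid overlapped it. Grpel1 fell by 0.67 ± 0.06 with Arg C (limma, adjusted p = 2.32e-07) and was -0.07 ± 0.06 with linezolid (adjusted p = 0.331). With median-ratio scaling it was -0.07 with Arg C, not called, and 0.21 with linezolid, called higher. Grpel2 fell by 0.41 ± 0.08 with Arg C and was 0.05 ± 0.08 with linezolid. Hspa9, the Hsp70 itself, is outside the name rule. It was 53.3 to 71.4 RPKM with DMSO (median 65.6), 29.7 to 89.4 with Arg C (median 59.7) and 39.2 to 105.7 with linezolid (median 78.5), in overlapping groups. Its change was -0.20 ± 0.07 with Arg C (limma, adjusted p = 0.0202), called lower, but 0.45 and called higher with median-ratio scaling, and 0.12 ± 0.07 with linezolid, not called, but 0.41 and called higher with median-ratio scaling. Without ribosomal-protein and mitochondrial-genome genes the linezolid change was 0.25, called higher. The lower call with Arg C was lost, at -0.14 to -0.18, without any 1 of 5 samples of experiment 1 (DMSO cycles 2 and 3, Arg C cycles 2, 3 and 4).

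**Figure D3:**
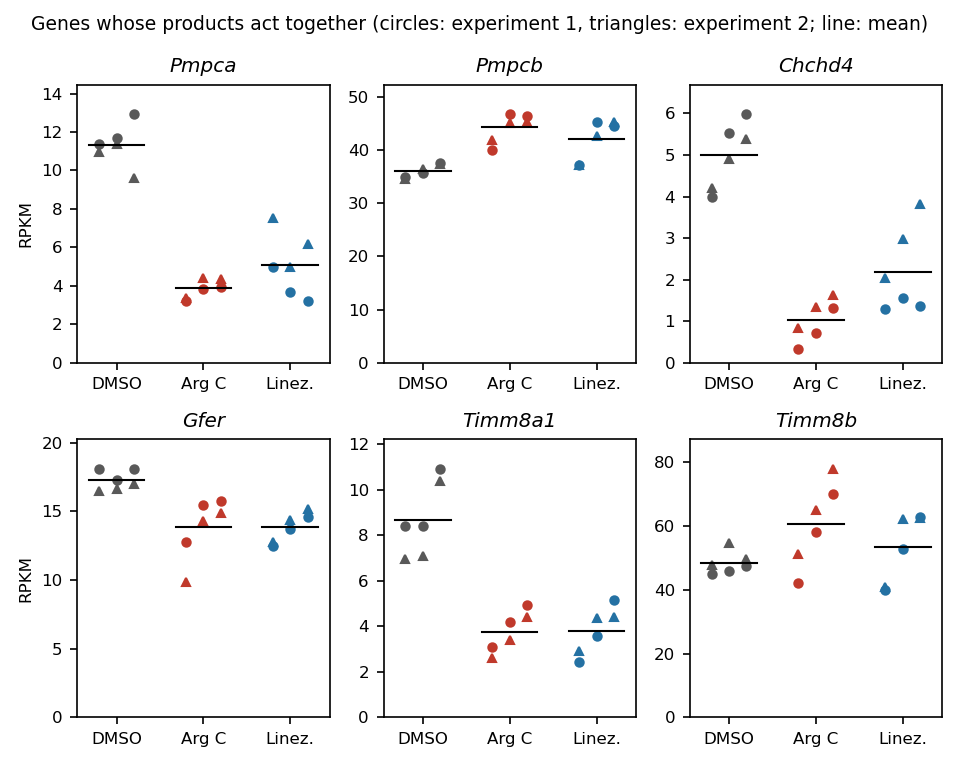
Level (RPKM, linear axes from 0) in the 18 samples of 3 pairs whose products act together, with the mean of each drug as a line and cycles 2 to 4 from left to right within a drug. Pmpca, Chchd4 and Timm8a1 are lower in every drug sample than in any DMSO sample, and Pmpcb is higher in every Arg C sample.

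Beyond the import steps proper, Tomm34 was 13.2 to 17.9 RPKM with DMSO (median 14.9), 8.26 to 10.5 with Arg C (median 10.2) and 10.5 to 16.5 with linezolid (median 14.3). Tomm34 fell by 0.57 ± 0.05 with Arg C (limma, adjusted p = 3.41e-07), without overlap, and was -0.11 ± 0.05 with linezolid (adjusted p = 0.0678). Timmdc1 was 4.04 to 5.67 RPKM with DMSO (median 4.53), 1.83 to 2.70 with Arg C (median 2.25) and 2.01 to 3.60 with linezolid (median 3.20). Both drugs lay below DMSO, and Timmdc1 fell by 0.81 ± 0.12 (limma, adjusted p = 2.52e-05) and 0.55 ± 0.12 (adjusted p = 0.000893).

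With Arg C the medians of the outer and inner membrane genes were close, and the outer genes were spread wider. With Arg C 16.5% of all genes rose and 70% fell. Of 11 tested outer membrane genes 3 rose and 8 fell, with changes from -1.58 to 0.57 and a median of -0.58. Of 8 inner membrane genes none rose and 7 fell, from -0.76 to 0.04 with a median of -0.56. The 8 genes of the intermembrane space had 1 rise and 7 falls (median -0.45), and the 4 of the matrix 1 rise and 3 falls (median -0.54). With linezolid, where 21% of all genes rose and 54.5% fell, the outer genes had 2 rises and 8 falls (median -0.45), the inner genes 1 and 6 (median -0.35), the intermembrane space 1 and 7 (median -0.45) and the matrix 1 and 1 (median -0.01). With median-ratio scaling the Arg C medians were 0.05 for outer and 0.07 for inner genes. In single samples the mean log2(RPKM + 1) of outer genes exceeded that of inner genes by 0.90 to 0.98 with DMSO, by 0.79 to 0.92 with Arg C and by 0.75 to 0.85 with linezolid. Linezolid thus lay wholly below DMSO in this difference, and Arg C overlapped both. Against DMSO of the same cycle and experiment the difference was lower in 6 of 6 pairs with Arg C, by -0.16 to -0.02, and in 6 of 6 with linezolid, by -0.19 to -0.06. Summed RPKM, in which abundant genes weigh most, went the other way. The outer sum was 375 to 430 with DMSO, 362 to 424 with Arg C and 334 to 416 with linezolid. The inner sum was 163 to 196, 91.7 to 150 and 116 to 163, and fell more in proportion. The direction thus depended on the measure. No test was made over the genes of a class.

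**Figure D4:**
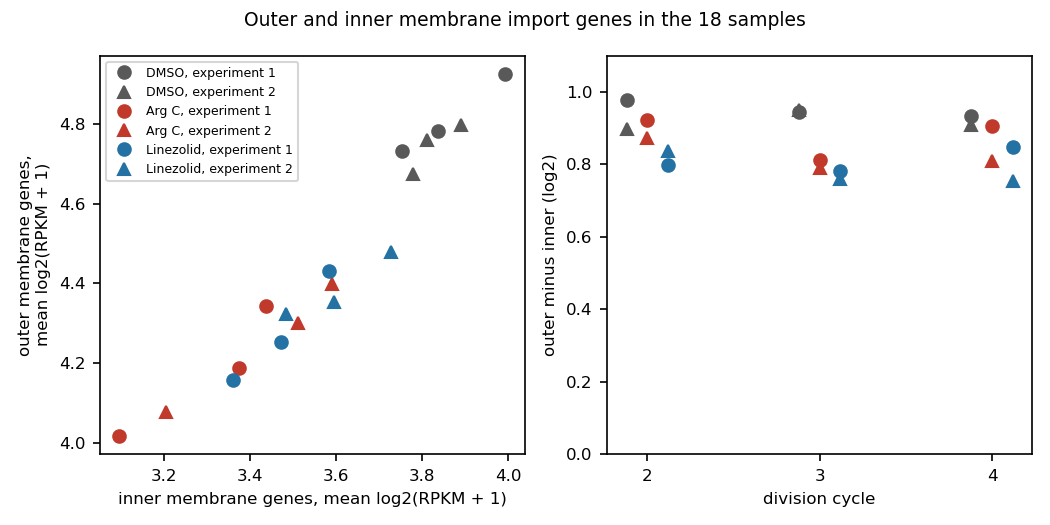
Left, mean level of the outer against the inner membrane import genes in each sample, in log2(RPKM + 1); right, the difference between them by division cycle, on an axis from 0. DMSO samples lie at the upper right, with differences of 0.90 to 0.98, and linezolid samples have differences of 0.75 to 0.85.

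Directly compared, the drugs differed in 17 of the 33 members, beside 67.4% of all genes. With Arg C 4 were higher and 13 lower than with linezolid, beside 7.64% and 59.8% of all genes, and the members' median was -0.06 beside -0.23 for all genes. No higher member and 5 lower members had groups that did not overlap (beside 0.645% and 17.3% of all genes). The 4 were Tomm20 (0.26 ± 0.04), Tomm7 (0.22 ± 0.06), Timm8b (0.18 ± 0.04) and Tomm22 (0.10 ± 0.04), the first 3 of which had also risen with both drugs. The largest falls were Mtx2 (-0.71 ± 0.12, limma, adjusted p = 0.00018), Chchd4 (-0.63 ± 0.13, adjusted p = 0.00112) and Grpel1 (-0.61 ± 0.06, adjusted p = 5.84e-06). Each of these 3 was lower than linezolid in 6 of 6 pairs. Pmpca was also called lower (-0.29 ± 0.12, adjusted p = 0.0477), but the call was lost without any 1 sample other than DMSO cycle 4 of either experiment and linezolid cycles 2 and 4 of experiment 1. Without linezolid cycle 4 of experiment 2 it was -0.18. Tomm40 did not pass (-0.09 ± 0.09, adjusted p = 0.402). The split depended on the scaling, since with median-ratio scaling 20 members were higher and 5 lower (beside 32.1% and 29.5%). With the cycles averaged 1 member was higher, Tomm20, and 7 were lower, beside 1.74% and 35.7% of all genes in that fit; Tomm7, Timm8b and Tomm22 lost the call. Under median-ratio scaling the 4 higher genes kept their call, and of the 13 lower genes Tomm70a, Mtx2, Chchd4, Grpel1 and Grpel2 did.

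More import genes were called to change between cycle 2 and cycle 4 with either drug than with DMSO. Whether a drug's course differed from that of DMSO was tested gene by gene and is given further on. With DMSO, from cycle 2 to cycle 4, 2 members rose (Tomm20, 0.34 ± 0.07, and Timm23, 0.24 ± 0.06) and 0 fell by limma, beside 4.45% and 3.22% of all genes. At an unadjusted p under 0.05 the counts were 10 and 0, and with median-ratio scaling none was called. With Arg C 19 rose and 1 fell, beside 18.3% and 13.7% of all genes, with a median of 0.31 beside 0.00 for all genes. All 8 tested genes of the intermembrane space were among the 19. With linezolid 13 rose and 2 fell, beside 15% and 17.9%, with a median of 0.24 beside -0.05. All 19 rises with Arg C and all 13 with linezolid were called with median-ratio scaling too.

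Timm50, whose product receives presequences as they leave TOM, had the largest change with division of the members in the cells given either drug (1.37 ± 0.09 with Arg C and 0.90 ± 0.09 with linezolid). With DMSO its change was 0.22 ± 0.09, not called. With DMSO it was 9.83 and 9.89 RPKM at cycle 2 in experiments 1 and 2, 10.8 and 10.4 at cycle 3, and 11.9 and 11.4 at cycle 4. With Arg C it was 3.82 and 3.74 at cycle 2, 7.98 and 9.70 at cycle 3, and 11.1 and 11.6 at cycle 4. With linezolid it was 5.34 and 4.76, then 7.28 and 7.72, then 10.3 and 10.2. The drug samples were therefore far below DMSO after 1 division, and Arg C overlapped DMSO after 3 or more. The Arg C difference was -1.18 ± 0.09 at cycle 2 and -0.04 ± 0.09 at cycle 4. The change in that difference, 1.15 ± 0.13, passed the test of the interaction (limma, adjusted p = 0.00172), as did that with linezolid, 0.68 ± 0.13 (adjusted p = 0.015).

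Over all members, 5 drug effects were higher and 1 lower at cycle 4 than at cycle 2 with Arg C, beside 4.25% and 3.66% of all genes. Besides Timm50 they were Tomm40 (0.92 ± 0.23), Grpel1 (0.76 ± 0.15), Timm8b (0.59 ± 0.11) and Timm23 (0.58 ± 0.09) on the higher side. With linezolid 3 were higher (Timm50, Timm8b at 0.56 ± 0.11 and Timm23 at 0.40 ± 0.09) and 1 lower, beside 2.05% and 3.34%. Tomm40 with Arg C went from 2.33 and 2.13 RPKM at cycle 2 through 4.23 and 4.86 to 5.90 and 6.21, and stayed below its DMSO samples at every cycle. Grpel1 went from 4.78 and 6.77 RPKM to 9.94 and 12.1 with Arg C, with DMSO at 12.8 to 14.2 throughout. Timm23 went from 41.4 and 42.9 RPKM to 73.6 and 76.7. Timm8b went from 42.1 and 51.2 RPKM to 69.9 and 77.8 with Arg C, so that it was level with DMSO at cycle 2 (0.00 ± 0.08) and above it at cycle 4 (0.59 ± 0.08).

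The alternative channel partners ran in opposite directions. With Arg C Timm17a went from 10.8 and 15.8 RPKM at cycle 2 to 19.6 and 22.9 at cycle 4, a rise of 0.66 ± 0.13. Timm17b went from 15.9 and 17.98 RPKM to 10.8 and 13.6, a fall of 0.45 ± 0.10. With linezolid Timm17a rose by 0.65 ± 0.13 and Timm17b fell by 0.47 ± 0.10, from 21.4 and 24.2 RPKM to 14.2 and 18.4. With DMSO neither changed by the test (0.22 ± 0.13 and 0.07 ± 0.10). Timm17b was the 1 member whose drug effect was lower at cycle 4 than at cycle 2, by -0.52 ± 0.14 with Arg C (limma, adjusted p = 0.0375) and -0.53 ± 0.14 with linezolid (adjusted p = 0.0417). Both calls were lost with no filter on low values. The Arg C call was also lost without replicate 3, and the linezolid call in 2 of the omissions of a replicate. The interaction was not called for Timm17a.

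**Figure D5:**
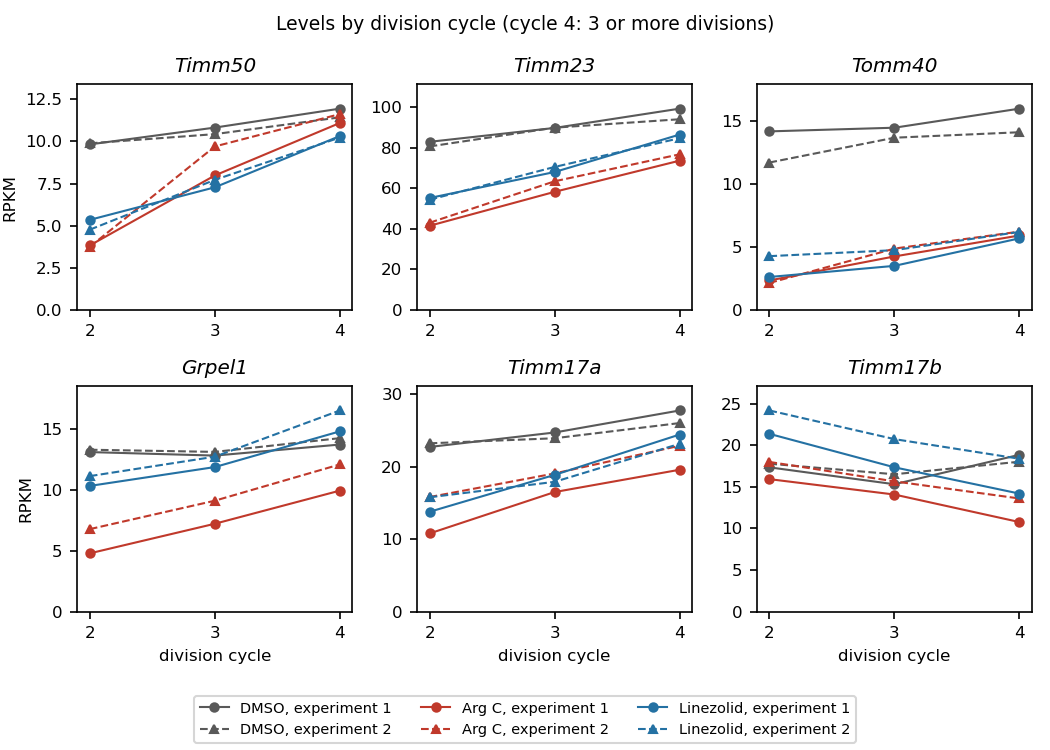
Level (RPKM, linear axes from 0) of 6 import genes by division cycle, 1 line for each drug and experiment. Timm50 starts at 3.74 to 5.34 RPKM with the drugs and reaches 10.2 to 11.6 at cycle 4, close to DMSO; Timm17a climbs and Timm17b declines with both drugs.

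Within each single cycle more members fell than rose. With Arg C 3 members rose and 25 fell at cycle 2 (12.9% and 62.7% of all genes), 5 and 23 at cycle 3 (14.1% and 63%), and 4 and 22 at cycle 4 (11.7% and 63.5%). With linezolid the counts were 2 and 22 (15.7% and 37.1%), 5 and 21 (15.4% and 46%), and 4 and 18 (14% and 44.3%). With median-ratio scaling the Arg C counts were 7 and 12 at cycle 2 (34.9% and 34.7% of all genes), 11 and 8 at cycle 3 (36% and 35.7%), and 14 and 10 at cycle 4 (34.7% and 35.1%). Those of linezolid were 4 and 15 (25.7% and 25.2%), 7 and 11 (29.7% and 28.7%), and 6 and 11 (28.4% and 28.3%). Under median-ratio scaling, but not in RPKM, the members that fell were thus no longer the majority of calls at cycles 3 and 4 of Arg C. Tomm40, Tomm70a, Mtx1, Mtx2, Chchd4, Timm10 and Pmpca fell at each cycle with each drug under both scalings. Tomm20 rose at each cycle with each drug under both scalings.

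In each experiment more members fell than rose. With Arg C, experiment 1 taken alone had 4 members that rose and 24 that fell (13.1% and 68.2% of all genes), and experiment 2 had 4 and 24 (15.3% and 64.4%). With linezolid the counts were 3 and 20 (16.1% and 55.4%), and 3 and 18 (21.4% and 41.6%). Some falls were smaller in experiment 2, and the middle of all genes moved as much or more. The Arg C effect of the members differed by a median of 0.13 (experiment 2 minus experiment 1), beside 0.14 for all genes. For linezolid the medians were 0.13 and 0.17. The Arg C effect was higher in experiment 2 for 4 members and lower for 0, beside 16.1% and 2.32% of all genes, by limma; at an unadjusted p under 0.05 the counts were 8 and 0. For linezolid 6 were higher and 1 lower, beside 24.4% and 3.3%. With median-ratio scaling the counts were 2 and 2 for Arg C (4.69% and 7.37% of all genes) and 3 and 2 for linezolid (6.92% and 10.5%). Of the genes higher in RPKM, Tomm5 and Mtx1 lost the call for Arg C, and Tomm5, Timm21 and Pmpca for linezolid. In RPKM, Mtx2 fell by 1.72 in experiment 1 and 1.17 in experiment 2 with Arg C, and by 1.09 and 0.38 with linezolid. Chchd4 fell by 1.34 and 0.58 with linezolid, Pmpca by 1.41 and 0.70, and Timmdc1 by 0.91 and 0.20. Timm21 with linezolid fell by 0.63 in experiment 1 and was -0.03 in experiment 2. Tomm7 was the 1 member called to differ the other way, 0.34 higher in experiment 1 and 0.09 in experiment 2. The sample ids of experiment 1 carry the numbers 3 to 5 and those of experiment 2 the numbers 6 to 8. These were read here as sequencing lanes, which cannot be told apart from the experiment.

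Several members share sequence with other genes, which bears on how their reads were counted. In GENCODE transcripts 14 of the 36 had a stretch of at least 200 bp at 95% identity or more with another gene. Timm23 shared 1121 bp at 99.9% with Gm10273 and stretches with pseudogenes, and Gm10273 was listed at 0 RPKM in every sample. Pseudogenes of Tomm20 and Timm17a that were in the table were also listed at 0. How reads that fit several places were treated is not given in the sources used here, so the levels of Timm23, Tomm20, Timm17a, Timm8a1 and Grpel2 may include or lack shared reads.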

How the data were processed

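Expression values of 54 RNA-seq libraries were taken from the table the authors deposited. It states no unit; its values behave as RPKM, and whole reads were recovered from the deposited RPKM for 19282 of 19284 genes with any value (99.958% of values whole within 0.001 read). Per the submitters' processing notes, CASAVA was used and the build was GRCm38.p5. The sources used here do not name the aligner, the counter, the annotation or the strand setting. The 3 technical replicates differed by little more than counting noise (chi-square per degree of freedom 1.04 to 1.11) and were averaged, giving 18 samples.

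The 11004 genes that reached 0.5 RPKM in 2 or more of the 18 samples were fitted as log2(RPKM + 1) with limma 3.58.1 (eBayes with trend, R 4.3.3), 1 coefficient per drug and cycle and experiment as a block, leaving 8 residual degrees of freedom. Experiment interactions used drug and experiment with cycle as a block. Adjusted p-values are Benjamini-Hochberg over all genes, with calls under 0.05. Cycles of a culture were treated as samples, so p-values can be too small; they measure the spread between these samples only. The fit was also run on simulated reads of independent samples, with no experiment effect and no shift of the median of all genes. That run cannot show how the fit handles cycles of a shared culture. Alternatives were the pseudocount, the filter, the scaling, limma-voom on recovered reads, the block, the 54 libraries, and leaving out replicates, samples or experiments.

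Members, lists, motifs and ratios were chosen with earlier results of these data known. Values of each group, as its range and median, are given for Tomm20, Tomm40, Timm23, Timm17a, Timm22 and Hspa9, for the member with the largest rise and fall of each role with either drug, and for the 3 with the largest difference each way between the drugs; members beyond these were named after their values were seen. A marker list fixed for the check of the labelled cells is not reported here.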

Additional observations from a re-analysis of the deposited data

Results flagged for a closer look

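In 2 of 99 groups of 6 samples, 1 sample stood apart from the other 5, where chance alone gives about 1 in 20. Tomm5 with DMSO was highest at cycle 4 of experiment 1, with a gap to the next sample of 0.656 of the whole range. Timm21 with Arg C was lowest at cycle 4 of experiment 1, with a gap of 0.65 of the range.

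Drug effects that differed between cycle 4 and cycle 2 by the test of the interaction were, for Arg C, those on Timm50 (1.15 log2), Tomm40 (0.92), Grpel1 (0.76), Timm8b (0.59), Timm23 (0.58) and Timm17b (-0.52). For linezolid they were those on Timm50 (0.68), Timm8b (0.56), Timm23 (0.40) and Timm17b (-0.53).

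Drug effects that differed between experiment 2 and experiment 1 were, for Arg C, those on Mtx2 (0.54), Grpel2 (0.44), Tomm5 (0.37) and Mtx1 (0.36). For linezolid they were those on Chchd4 (0.76), Mtx2 (0.71), Timmdc1 (0.71), Pmpca (0.70), Timm21 (0.60), Tomm5 (0.49) and Tomm7 (-0.26). With median-ratio scaling Tomm5 and Mtx1 lost the call for Arg C, and Pmpca, Timm21 and Tomm5 for linezolid. Experiment and the lane read from the sample ids cannot be told apart.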

How the results depend on the processing

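The scaling mattered most. With median-ratio scaling the counts of members called higher and lower were 11 and 11 for Arg C, 10 and 14 for linezolid, and 20 and 5 between the drugs. At single cycles they were 7 and 12, 11 and 8, and 14 and 10 for Arg C, and for linezolid 4 higher at cycle 2, 11 lower at cycle 3 and 11 lower at cycle 4. From cycle 2 to 4 they were 0 higher with DMSO and 1 lower with linezolid. For the experiment interactions they were 2 and 2 with Arg C, and 3 and 2 with linezolid. For the partner list they were 22 and 7, 16 higher with linezolid, and 21 and 5. The median of the outer genes became 0.047 for Arg C, -0.19 for linezolid and 0.29 between the drugs, and that of the inner genes 0.0703, -0.0903 and 0.17. With this scaling Arg C against DMSO turned to 0.037 for Timm23, 0.12 for Timm17a, 0.45 for Hspa9, 0.0416 for Tomm34 and 0.39 for Timm17b. Linezolid against DMSO turned to 0.16 for Tomm34 and 0.21 for Grpel1. Arg C against linezolid turned to 0.20 for Tomm40, 0.12 for Timm23, 0.22 for Timm17a, 0.0341 for Hspa9 and 0.0112 for Pmpca. Without ribosomal-protein and mitochondrial-genome genes, Arg C against DMSO was 0.10 for Hspa9 and 0.0569 for Timm17b. In that fit 6 members were higher and 22 lower with Arg C than with DMSO, and 6 and 21 with linezolid. Between the drugs 14 members were higher and 10 lower with Arg C than with linezolid.

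Linezolid raised 3 members with no experiment block, 3 without experiment 1, 3 without experiment 2 and 1 with cycles averaged. Between the drugs 1 member was higher without experiment 2, and 1 higher and 7 lower with cycles averaged. With no filter 2 members rose with linezolid at cycle 3, and 0 were lower in either cycle interaction. Taking the 54 libraries as own replicates, which counts technical replicates as separate samples, gave 8 higher between the drugs. Leaving out 1 replicate or sample gave 3 to 5 members higher with linezolid, 1 to 2 at cycle 2 and 2 to 4 at cycle 3, 1 to 3 higher with division in DMSO, and 0 to 1 lower in the cycle interaction of Arg C and of linezolid. Of 741 values of single named genes under settings other than these omissions, 645 kept direction and side of the threshold.

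Replicate numbers did not pair the samples: deviations of libraries with the same number correlated at -0.078 to 0.0925, and of other numbers at -0.116 to 0.114. With a replicate block on 54 libraries, counts rose to 8 higher between the drugs and 5 higher with linezolid at cycle 2. With division they rose to 16 higher in DMSO, 2 lower in Arg C, and 22 higher and 4 lower in linezolid. That fit takes technical replicates of a sample as separate samples, so its p-values can be too small and its calls too many. The block gave 13 higher in the Arg C cycle interaction, 11 higher and 4 lower in that of linezolid, 11 higher and 1 lower in the Arg C experiment interaction, and 14 higher and 3 lower in that of linezolid.

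The cause of these shifts was not tested. Where the share of all genes called in the same fit is not given, a count of members cannot be set against genes at large. Chchd4 and Timm10 had as few as 14 and 15 reads in a sample, which limits their precision.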

Other observations

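Import also needs proteins outside the name rule, and a list of 36 such partners was counted. Of these, 33 were in the table and 31 were tested. With Arg C 10 rose and 17 fell, beside 16.5% and 70% of all genes. With linezolid 7 rose and 14 fell, beside 21% and 54.5%. Between the drugs 11 were higher and 11 lower with Arg C, beside 7.64% and 59.8%. With median-ratio scaling the counts were 22 and 7, 16 and 10, and 21 and 5, beside 41.9% and 41.4%, 38% and 36.3%, and 32.1% and 29.5%. The median of the list was -0.17 with Arg C and -0.12 with linezolid, beside -0.47 and -0.21 for all genes.

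Oxa1l, which inserts proteins from the matrix side into the inner membrane, was 23.9 to 29.5 RPKM with DMSO (median 26.4), 52.2 to 60.1 with Arg C (median 54.8) and 51.4 to 58.3 with linezolid (median 54.7). Both drugs lay wholly above DMSO, and Oxa1l rose by 1.06 ± 0.05 and 1.03 ± 0.05, the largest rises of the list and above those of every import member. Chchd3, a subunit of the MICOS complex at cristae junctions, rose by 0.59 ± 0.04 and 0.34 ± 0.04. Romo1, a small inner membrane protein tied to TIM23, was 27.2 to 31.6 RPKM with DMSO, 7.65 to 14.1 with Arg C and 11.6 to 16.3 with linezolid, and fell by 1.39 ± 0.07 and 1.05 ± 0.07. Pink1, the kinase that gathers on TOM when import fails, fell by 1.36 ± 0.09 and 0.58 ± 0.09. Dnajc11, bound to SAM and MICOS, fell by 1.33 ± 0.10 and 0.96 ± 0.10. Under median-ratio scaling Oxa1l and Chchd3 stayed above DMSO and Romo1, Pink1 and Dnajc11 below it for both drugs. These 5 were named after their values were seen.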
